A study of Mus musculus with 43 samples.

Results

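The genes described here are 10 genes of early B-cell development, Rag1, Rag2, Dntt, Vpreb1, Vpreb2, Vpreb3, Igll1, Ebf1, Pax5 and Il7r. They were found by matching mouse gene identifiers to these symbols, and all 10 had a row among the 56941 gene identifiers of the deposited tables, of which 51948 matched a symbol. The study placed 5000000 whole marrow cells carrying JAK2V617F, the activating kinase mutation of myeloproliferative neoplasms, into wild-type mice that had received no conditioning. The transplanted cells bore the surface allele CD45.2 and the recipients the allele CD45.1, so the 2 sources could be sorted apart. How the mutation was expressed in the donors, and the age of the mice in years or months, were not given in the sources used here. About 7 months later, 7 recipients (3 females and 4 males) each gave a library of their own CD45.1 marrow cells, called host cells here, and a library of CD45.2 marrow cells, called donor cells. The controls were 8 age- and sex-matched wild-type CD45.1 mice (4 females and 4 males) without a transplant, whose CD45.1 marrow cells were sorted. Stroma-enriched cells came from the same 7 recipients and 8 controls, as cells without CD45 that also lacked B220, a B-lineage marker, the T-cell markers CD4 and CD8, the myeloid markers CD11b and Ly-6G/Ly-6C, and NK1.1 and Ter119. In a later experiment at 52 weeks, CD45.1 and CD11b double-positive cells, a myeloid sort, came from 3 male recipients and 3 male controls. No mice received normal marrow, so the mutation and the transplantation itself cannot be told apart.

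B lymphocytes arise in the marrow from lymphoid progenitors that depend on interleukin-7 from stromal cells, read through the receptor chain encoded by Il7r. Ebf1 and Pax5 encode the transcription factors that specify the lineage and then hold cells to it. Rag1 and Rag2 encode the recombinase that cuts antigen-receptor genes, and Dntt encodes terminal transferase, which adds nucleotides at the joins. The first heavy chain pairs with a surrogate light chain made of a VpreB protein (Vpreb1 or Vpreb2) and lambda5 (Igll1), forming the pre-B-cell receptor, while Vpreb3 encodes a related protein that associates with newly made heavy chains inside the cell. Most of these genes are silenced as B cells mature, but Pax5 and Ebf1 stay on through the mature stages. Ebf1 is also known as a factor of marrow stromal cells, and Il7r of T cells.

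The surrogate light chain genes are shown by sequence because 2 of them are near copies, which bears on how reads were divided between them. The stretches below lie upstream of the annotated starts of Vpreb1, Vpreb2 and Igll1 on chromosome 16, read 5′ to 3′ along each gene from RefSeq (GRCm38.p6). Capitals mark the E-box CAGGTG, a site type bound by E2A, or its reverse complement CACCTG.
Vpreb1, chr16:16869256-16869360, minus strand: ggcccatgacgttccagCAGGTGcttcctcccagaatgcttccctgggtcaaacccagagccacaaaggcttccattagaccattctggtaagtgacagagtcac
Vpreb2, chr16:17980316-17980420, plus strand: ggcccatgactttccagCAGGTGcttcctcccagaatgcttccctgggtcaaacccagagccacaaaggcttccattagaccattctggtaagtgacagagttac
Igll1, chr16:16863986-16864085, minus strand: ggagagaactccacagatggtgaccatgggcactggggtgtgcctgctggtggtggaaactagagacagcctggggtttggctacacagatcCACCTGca
The Vpreb1 and Vpreb2 stretches, each 105 bases long, were identical at 98.1% of positions and differed only by G11T and C103T, counted from 1 at the 5′ end, with the Vpreb1 base first. The Vpreb1 stretch ends at the base before its annotated start, whereas the matching Vpreb2 stretch runs from base -249 to base -145 before its own.

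The likeness of Vpreb1 and Vpreb2 extends to their transcripts, which were identical at 97.4% of 759 aligned bases and shared 32.8% of the 50-base words of the Vpreb2 transcript. How the authors' counting treated reads that match both genes is not given in the sources used here, so the split between Vpreb1 and Vpreb2 is uncertain in every value below. Vpreb3 shared no 50-base word with either. The 10 genes had 11 windows running from 250 bases before to 50 after an annotated start. CAGGTG on either strand was present in 4 of these windows (those of Rag1, Vpreb1, Vpreb2 and Igll1) and in 20.2% of 32851 RefSeq promoter windows. The EBF core CCCNNGGGA was found in 0 of the 11 windows and in 6.56% of all windows, and TATAAA in 0 of the 11 and in 13.6%.

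The 22 libraries of control, host and donor cells held 15713119 to 19683698 gene counts, those of stroma 41210646 to 143228988 and those of CD11b cells 32478800 to 44853593. At these depths 3 counts, the upper limit that a count of 0 allows, correspond to at most 0.191 CPM (counts scaled to a common library total). Stroma libraries held Cxcl12, a stromal chemokine, at 456 to 3797 TPM (transcript abundance corrected for length and scaled to a common total), against at most 2.05 TPM in any sorted CD45 group, but they also held Ptprc, which encodes CD45, at 15.1 to 91.9 TPM. The marrow CD45 groups held Itgam, which encodes CD11b, at 195 to 477 TPM, beside the B-lineage gene Cd79b at 43.1 to 142 TPM in controls, 24.0 to 64.1 TPM in host and 6.44 to 12.4 TPM in donor cells. One donor library, N204, is called donor in its title and recipient-derived in another label. Its early B-cell values lay within the range of the other donor libraries for every member.

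In control marrow, Vpreb3 was the most abundant of the 10 genes by TPM, with a lowest, median and highest value of 23.5, 54.4 and 96.9 over 8 mice. Igll1 (median 32.6), Vpreb1 (27.4), Pax5 (24.3) and Dntt (21.9) followed, then Ebf1 (14.4), Il7r (14.3) and Rag1 (13.8). Vpreb2 (3.35) and Rag2 (2.11) were the least abundant. Vpreb1 exceeded Vpreb2 in every control, by 5.06 to 10.4 times, within the limit that their reads can be confused. Control N277 held the lowest value of 6 of the 10 genes and control N002 the highest of 8.

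**Figure D1:**
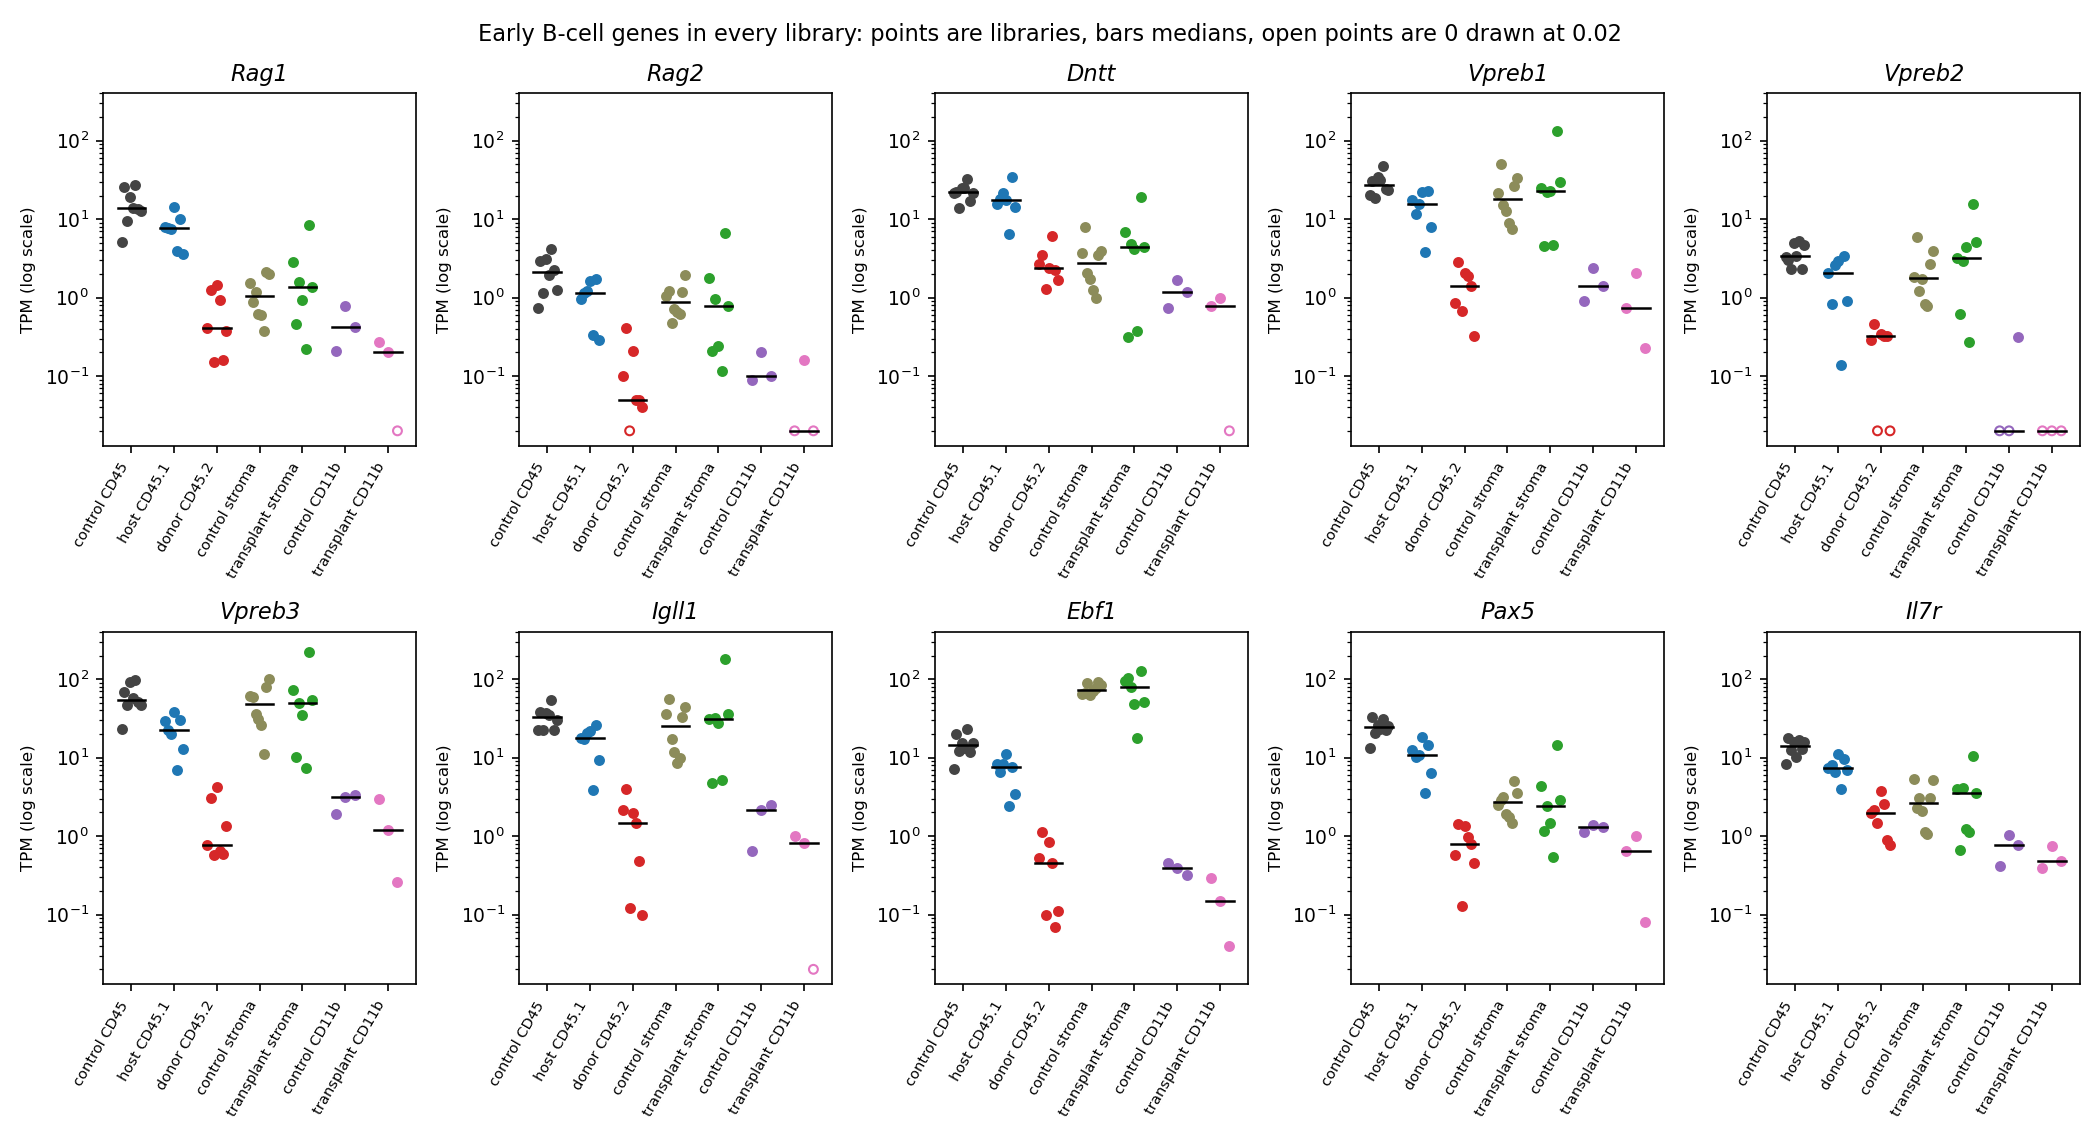
TPM of the 10 genes (log scale) in each of the 43 libraries, by group; bars are medians, and open points are libraries listed at 0, drawn at 0.02. Donor cells lie below every control library for all 10 genes, host cells overlap the controls, and by median Ebf1 alone is highest in stroma, at 78.6 TPM in recipients. The recipient stroma library N203 holds the highest single value of Ebf1, Rag2, Igll1, Vpreb1, Vpreb2 and Vpreb3.

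Across the 7 groups, 9 of the 10 genes had their highest median in control CD45 cells, and Ebf1 had its highest in stroma. Groups next to each other in the order of medians overlapped, with 7 exceptions. For Ebf1 the ranges were apart between control stroma (63.0 to 91.1 TPM) and control CD45 cells (7.08 to 23.4 TPM), between host and donor cells, and between control and recipient CD11b cells. The CD11b ranges rest on 3 libraries a group and on low values, 0.32 to 0.45 TPM in controls and 0.04 to 0.29 TPM in recipients. For Vpreb1, Vpreb3 and Igll1 they were apart between host CD45 cells and control CD11b cells, and for Vpreb2 between control stroma and donor cells. Of all genes tested between donor and host cells, 4.28% had every donor library below every host library by CPM. For the other pairs of groups the share of all genes apart was not counted, so these exceptions are descriptions. Stroma and CD11b libraries were prepared separately from the others, and levels across these sets were not tested.

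Host cells held less RNA of all 10 genes than control cells. With edgeR's quasi-likelihood test, sex as a covariate and Benjamini-Hochberg adjustment over all 14073 genes tested, 10 of 10 passed at an adjusted p below 0.05 and all were lower, where 7.82% of all genes tested were lower. Their median log2 fold change was -1.14, against 0.01 for all genes tested. For each of the 10 genes the host and control libraries overlapped. These are bulk samples, in which fewer cells of a type and less RNA per cell cannot be told apart.

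Among the transcription factors, Pax5 had a lowest, median and highest TPM of 3.59, 10.7 and 18.2 in host cells and 13.2, 24.3 and 33.4 in control cells. Host N203, the highest, lay above 1 control, N277, and N005 lay above it too. Pax5 fell by 1.39 on the log2 scale (SE 0.22, edgeR adjusted p = 7.1e-04). Ebf1 had 2.45, 7.53 and 11.1 TPM in host cells and 7.08, 14.4 and 23.4 TPM in control cells. It fell by 1.17 (SE 0.20, edgeR adjusted p = 0.0014), and the ratio of Ebf1 to Pax5 TPM had overlapping ranges, with a median of 0.65 in host and 0.59 in control cells.

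Il7r, the interleukin-7 receptor chain, had a lowest, median and highest TPM of 3.99, 7.40 and 11.1 in host cells and 8.26, 14.3 and 17.8 in control cells. It fell by 0.93 on the log2 scale (SE 0.16, edgeR adjusted p = 0.0011). Host N203 and N005 lay within the control range and the other 5 below its lowest library, N277.

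The recombinase genes moved together. Rag1 had 3.63, 7.82 and 14.1 TPM (lowest, median, highest) in host cells and 5.17, 13.8 and 27.4 TPM in control cells, and fell by 1.11 (SE 0.21, edgeR adjusted p = 0.0027). Rag2, its partner subunit, had 0.29, 1.15 and 1.75 TPM in host cells and 0.74, 2.11 and 4.14 TPM in control cells, and fell by 1.15 (SE 0.22, edgeR adjusted p = 0.0027). Rag2 rests on 12 to 41 counts in a host library.

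Dntt showed the smallest difference of the 10. It had 6.47, 17.4 and 34.5 TPM in host cells and 13.9, 21.9 and 32.1 TPM in control cells, so the highest library of both groups was a host library, N005. It fell by 0.46 on the log2 scale (SE 0.15, edgeR adjusted p = 0.049). The Dntt call was close to the threshold: it passed in 7 of 27 alternatives, with adjusted p from 0.0071 to 0.36. It was lost without any one of host N279, N014, N032, N203, N269 or N204 and of control N277, N288, N051, N002, N280 or N283, where the edgeR adjusted p lay between 0.053 and 0.099.

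Vpreb3, the relative of the surrogate light chain genes, showed the largest difference of the 10. It had 6.93, 22.6 and 37.9 TPM in host cells and 23.5, 54.4 and 96.9 TPM in control cells, and fell by 1.50 (SE 0.24, edgeR adjusted p = 9.1e-04). Of the surrogate light chain genes themselves, Vpreb1 had 3.76, 15.5 and 22.6 TPM in host cells and 18.6, 27.4 and 47.7 TPM in control cells, and fell by 1.14 (SE 0.20, edgeR adjusted p = 0.0016). Igll1, its partner, had 3.90, 17.8 and 26.2 TPM in host cells and 22.7, 32.6 and 54.9 TPM in control cells, and fell by 1.13 (SE 0.21, edgeR adjusted p = 0.0020). The Vpreb1 and Igll1 changes were thus close to those of the recombinase genes. Vpreb2 had 0.14, 2.04 and 3.41 TPM in host cells and 2.29, 3.35 and 5.23 TPM in control cells, and fell by 1.16 (SE 0.34, edgeR adjusted p = 0.027). Vpreb2 rests on 1 to 21 counts in a host library. Its call passed in 18 of 26 alternatives, with adjusted p from 0.0048 to 0.21. Among the fits with 1 library left out, it was lost without host N014 (edgeR adjusted p = 0.061) or host N204 (edgeR adjusted p = 0.060).

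2 host libraries, both from females, held the lowest value of every member: N269 for 8 genes and N204 for the other 2. N203 and N005 held the highest of 5 genes each. Without N269 and N204, an alternative chosen after seeing the data, 8 of 10 genes remained lower, and Dntt (-0.33, edgeR adjusted p = 0.15) and Vpreb2 (-0.81, edgeR adjusted p = 0.081) did not pass. With only the 3 host and 4 control females 0 of 10 passed, at log2 differences of -0.67 (Dntt) to -1.59 (Vpreb2), while 8 of 10 passed in males. Of all genes tested, far fewer also passed in either sex alone, and fewer in females than in males (counts below). For a difference between the sexes in the transplant effect, 0 of 10 members passed. 5 days of euthanasia held both a recipient and a control, and with the day as a block 9 of 10 were lower, Vpreb2 being at -1.55 (edgeR adjusted p = 0.078).

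**Figure D2:**
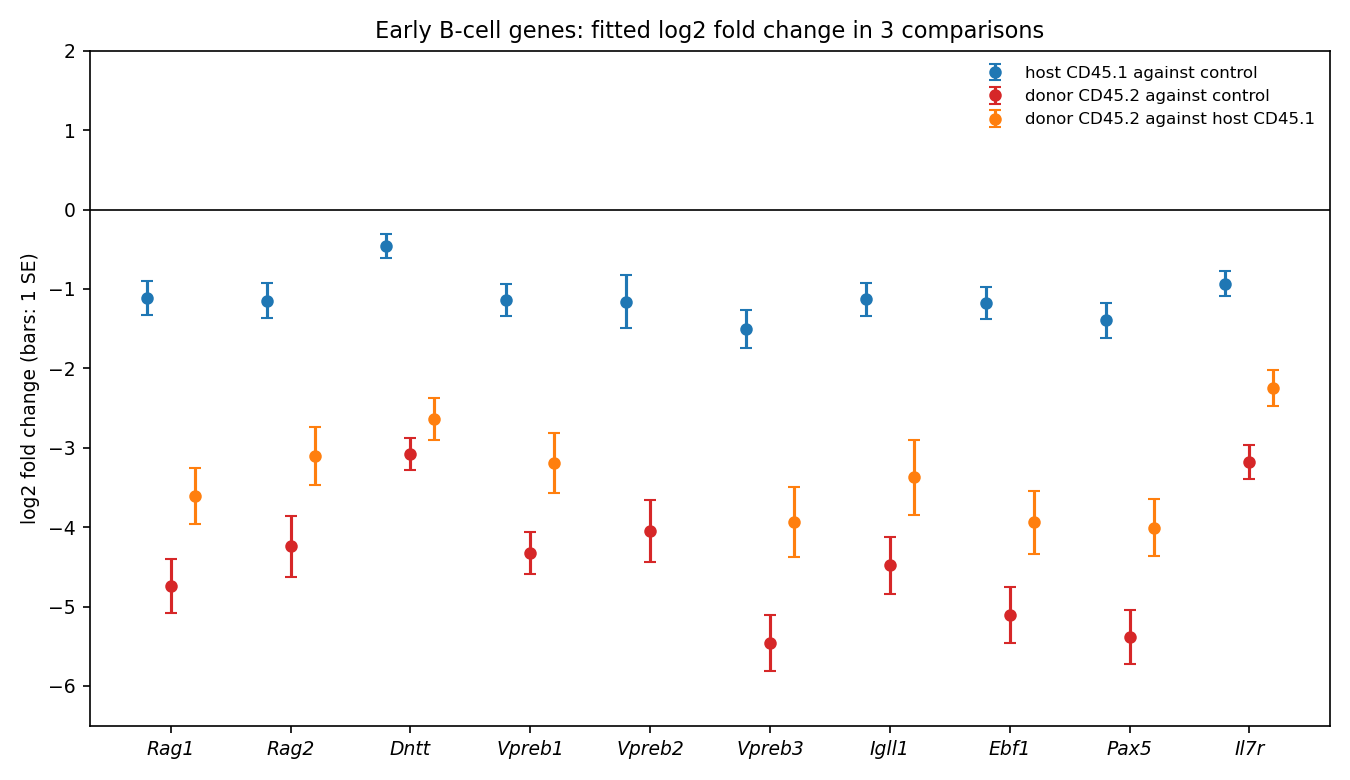
Log2 fold change with its SE (bars) for each gene in host cells against control (7 and 8 libraries), donor cells against control (7 and 8) and donor against host cells (7 and 7). Host changes lie between -0.46 and -1.50 and donor changes against control between -3.08 and -5.46; Vpreb2 was not tested between donor and host cells.

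Donor cells held far less RNA of the 10 genes. All 10 were lower than in control cells at an adjusted p below 0.05, where 23.0% of 13906 genes tested were lower, and the median log2 fold change was -4.40 against 0.00 for all genes tested. Every donor library lay below every control library for 10 of 10 genes, where 9.77% of all genes tested showed this. Host and donor cells were compared with the same 8 control libraries, so the 2 sets of differences are not independent. All 10 genes remained lower without donor N204, the library with conflicting labels.

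The largest donor differences were in Vpreb3 and Pax5. Vpreb3 had 0.58, 0.77 and 4.26 TPM (lowest, median, highest) in donor cells, and differed from controls by -5.46 on the log2 scale (SE 0.35, edgeR adjusted p = 2.3e-09). Pax5 had 0.13, 0.79 and 1.41 TPM, a log2 difference of -5.38 (SE 0.34, edgeR adjusted p = 2.0e-09). Ebf1 had 0.07, 0.46 and 1.14 TPM, with -5.11 (SE 0.35, edgeR adjusted p = 5.1e-09). For each of these 3 genes the highest donor library was under the lowest host library.

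Rag1 in donor cells had 0.15, 0.41 and 1.44 TPM, a log2 difference from control of -4.74 (SE 0.34, edgeR adjusted p = 6.9e-09). Rag2, at 0 to 8 counts a library, had -4.24 (SE 0.38), Igll1 had -4.48 (SE 0.36), Vpreb1 had -4.32 (SE 0.26) and Vpreb2, at 0 to 3 counts, had -4.05 (SE 0.39). At such counts the sizes for Rag2 and Vpreb2 are loose. The smallest differences were in Il7r, with 0.77, 1.97 and 3.77 TPM and a log2 difference of -3.18 (SE 0.21, edgeR adjusted p = 3.6e-09), and in Dntt, with 1.27, 2.38 and 6.09 TPM and -3.08 (SE 0.20, edgeR adjusted p = 2.8e-09). Dntt was thus at the small end of the range in both host and donor cells.

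Within the same 7 mice, donor cells were below host cells for the 9 genes that passed the low-count filter, and Vpreb2 was filtered out. The main fit had sex as a covariate and did not pair the libraries by animal, and the SE and adjusted p below are from it. 9 of 9 passed, where 9.94% of 13662 genes tested were lower, with a median log2 fold change of -3.37 against 0.00 for all genes tested. Log2 fold changes ran from -2.25 for Il7r (SE 0.22, edgeR adjusted p = 2.0e-06) to -4.01 for Pax5 (SE 0.36, edgeR adjusted p = 8.7e-07). The 2 sets of libraries did not overlap for 8 of the 9, where 4.28% of all genes tested were apart in this direction. The exception was Igll1, where donor N014 (4.02 TPM) lay just above host N269 (3.90 TPM). With the animal as a replicate block 9 of 9 were again lower, and the count of all genes passing rose from 1928 to 4605.

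To set the members beside B-lineage RNA, each TPM was divided by the sum of Cd79a and Cd79b TPM. These genes encode signalling chains of the pre-B-cell and mature B-cell receptors, and how evenly B-lineage stages carry them was not tested. Cd79a itself had a median of 144 TPM in control, 63.4 in host and 3.42 in donor cells. On this scale the host and control libraries overlapped for all 10 genes, and the ratio of the host to the control median lay between 0.96 (Vpreb3) and 1.26 (Rag1) for 9 of them. Dntt was the exception, with a median of 16.9% of Cd79 TPM in host (10.5% to 25.3%) and 8.35% in control cells (6.21% to 18.6%), a ratio of 2.03. The mature B-cell gene Ms4a1, which encodes CD20, had a median of 5.71% in host (4.72% to 6.51%) and 7.39% in control cells (5.72% to 8.53%), a ratio of 0.77. These ratios were not tested.

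In donor cells the same scale gave unlike values for the members. The ratio of the donor to the control median was 2.30 for Il7r and 2.24 for Dntt, but 0.30 for Vpreb3, 0.38 for Ebf1 and 0.50 for Pax5, and all overlapped the controls. The scale itself rests on low values there, Cd79a having 1.14 to 7.70 TPM and Cd79b 6.44 to 12.4 TPM in donor cells. By median Cd79b exceeded Cd79a in donor cells (9.12 and 3.42 TPM), whereas Cd79a exceeded Cd79b in controls (144 and 94.1 TPM). The CD11b sort held Cd79b at 9.52 to 21.5 TPM, and the source of Cd79b RNA in donor cells was not tested. The donor ratios thus depend on which chain is used and may not be per unit of B-lineage RNA. T-cell markers, of a lineage that also uses Il7r, were low in the same libraries: Cd3e had 0 to 0.69 TPM in donor and 6.93 to 17.8 TPM in control cells. Plasmacytoid dendritic cell markers, of a type that can carry Dntt and Rag transcripts, were lower for 6 of 7 genes, where 23.0% of all genes tested were lower. Among them Siglech had 3.57 to 10.5 TPM in donor and 18.7 to 45.8 TPM in control cells. The part of these cells in the members' values was not tested.

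**Figure D3:**
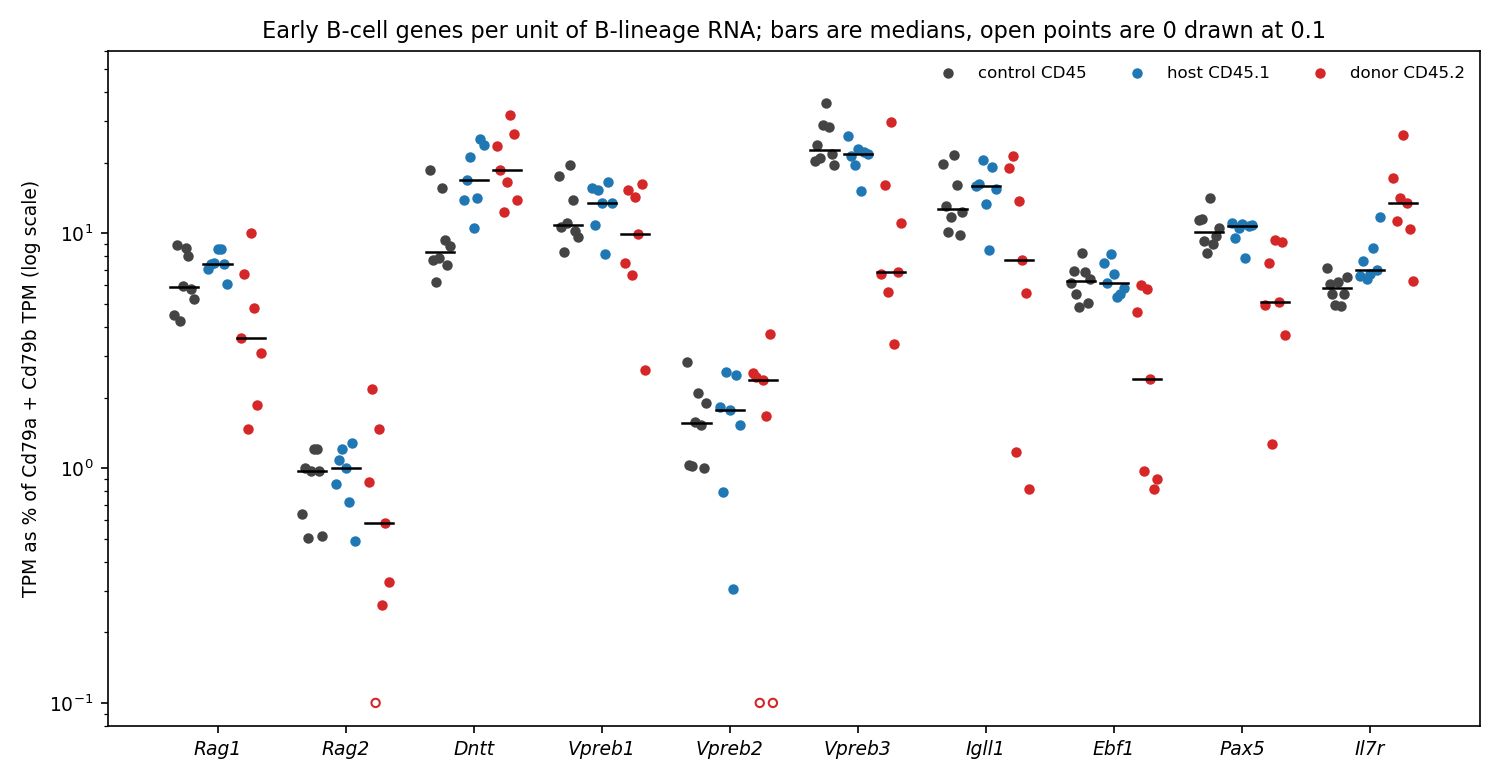
Each gene's TPM as a percentage of Cd79a plus Cd79b TPM (log scale) in the 8 control, 7 host and 7 donor libraries; bars are medians and open points are 0, drawn at 0.1. Host and control points overlap for all 10 genes, with Dntt medians of 16.9% and 8.35%, while donor points spread widely.

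The partners of these genes were followed in lists chosen for their roles. Of 16 partner transcription factors, 9 were lower and 0 higher in host cells, where 7.82% of all genes tested were lower. Their median log2 fold change was -0.33. Spib fell by 1.41 (SE 0.20, edgeR adjusted p = 3.9e-04), Pou2af1, a B-cell coactivator, by 1.31 and Irf4 by 1.27. In donor cells 11 of 16 were lower, where 23.0% of all genes tested were lower, with Ikzf3 (Aiolos) at -4.42 and Irf4 at -4.52. The other 7 did not pass in host cells.

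Of 10 partners and signalling genes of the pre-B-cell receptor, 6 were lower in host and 7 in donor cells. Over all genes tested, 7.82% were lower in host and 23.0% in donor cells. In host cells Blk, a Src-family kinase, fell by 1.60 (SE 0.25, edgeR adjusted p = 7.4e-04), Cd79b by 1.31 and the adaptor Blnk by 0.98. In donor cells the heavy-chain gene Ighm was at -4.11 (SE 0.19) and Blk at -5.52. All 10 mature B-cell markers were lower too, with medians of -1.48 in host and -5.17 in donor cells, and Ms4a1 fell by 1.71 in host cells.

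Of 11 interleukin-7 receptor signalling genes, 8 did not pass in host cells, 1 was higher and 2 were lower, where 1211 of 14073 genes tested were higher and 1101 lower: Jak3, the kinase of the shared gamma chain, rose by 0.65 (SE 0.12, edgeR adjusted p = 0.0018), while Jak1 fell by 0.20 and Socs1 by 0.54. Of 11 genes that complete V(D)J joining after the Rag cut, 4 were lower and 1 higher in host cells. The polymerase gene Polm fell by 0.91 (SE 0.14, edgeR adjusted p = 7.0e-04) and the ligase gene Lig4 by 0.77, while Poll rose by 0.52. Both lists hold genes that cells of other lineages express, and their medians in host cells were -0.04 and -0.08.

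Of 13 surface and stage genes of pro-B and pre-B cells, 5 were lower and 1 higher in host cells. Of all 14073 genes tested, 1101 were lower and 1211 higher, so the counts of higher genes in the lists here were near that share. Cecr2 fell by 1.38 (SE 0.22, edgeR adjusted p = 7.0e-04), Akap12 by 1.28 and Ly6d by 0.95. In the same host libraries, 0 of 13 T and NK markers were lower and 1 (Nkg7) was higher, 3 of 7 plasmacytoid dendritic cell markers were lower, with Siglech at -0.89 (SE 0.13), and 1 of 9 myeloid markers (Csf1r) was higher. The summed T and NK markers ran from 256 to 448 TPM in host and 262 to 395 TPM in control cells, and the 13 markers had a median log2 difference of -0.38 beside -0.46 for Dntt. Their part in the Dntt value was not tested. The part of these cells in the members' differences was not tested.

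Over the 22 control, host and donor libraries, the genes whose log2 CPM was most like the mean profile of the 10 members included Cd79a (Pearson r = 0.994), Chst3 (0.989), Pou2af1 (0.989) and Ikzf3 (0.989), out of 14344 genes. Members themselves had r of 0.944 (Vpreb2) to 0.996 (Vpreb1) with that mean. Donor libraries lay far below the rest for all of these, and the libraries share their sort and depth, so the correlations are descriptions with no test.

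Stroma-enriched cells held these genes as well. Of 26191 genes tested between stroma of recipients and of controls, 1.49% passed in either direction. 0 of 10 members passed with edgeR, 0 of 10 had an unadjusted p below 0.05, as had 2086 of all genes tested, and 0 passed with DESeq2. Their log2 differences ran from 0.09 (Ebf1, SE 0.28) to 1.14 (Vpreb2, SE 0.66), a median of 0.51 against 0.04 for all genes tested.

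The stroma library of 1 recipient stood above the others. That of N203 was the highest of its group for all 10 genes, with Vpreb3 at 223 TPM, Igll1 at 181 TPM and Vpreb1 at 132 TPM, where the group medians were 49.2, 31.2 and 23.0 TPM. The same library held Cd79a at 146 TPM, the highest of its group, while its summed T and NK markers (28.3 TPM) were the lowest. Its summed mature B-cell markers, at 211 TPM, were also the highest, but single markers differed. As a share of Cd79a plus Cd79b TPM, Ms4a1 (0.396%), Fcmr (0.413%) and Fcer2a (0.625%) were the lowest of the group in N203. Cd22 (0.902%) and Tnfrsf13c (6.74%) were not the lowest there. Without it the differences turned negative for 7 of 10 genes, for example -0.34 for Vpreb3 and -0.57 for Rag2. The part of B-lineage cells passing the stroma gate in these values was not tested.

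Ebf1 in stroma did not follow the other genes. It had 17.8, 78.6 and 126 TPM (lowest, median, highest) in stroma of recipients and 63.0, 73.9 and 91.1 TPM in stroma of controls, against 7.08 to 23.4 TPM in control CD45 cells. Pax5, its partner in B cells, was lower in stroma than in control CD45 cells, at 1.47 to 5.07 TPM in stroma of controls. The ratio of Ebf1 to Pax5 TPM had a median of 27.2 in control stroma and 0.59 in control CD45 cells, with ranges apart. Its relative Ebf2, listed at 0 in every host and donor library, had 9.97 to 18.5 TPM in control stroma.

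**Figure D4:**
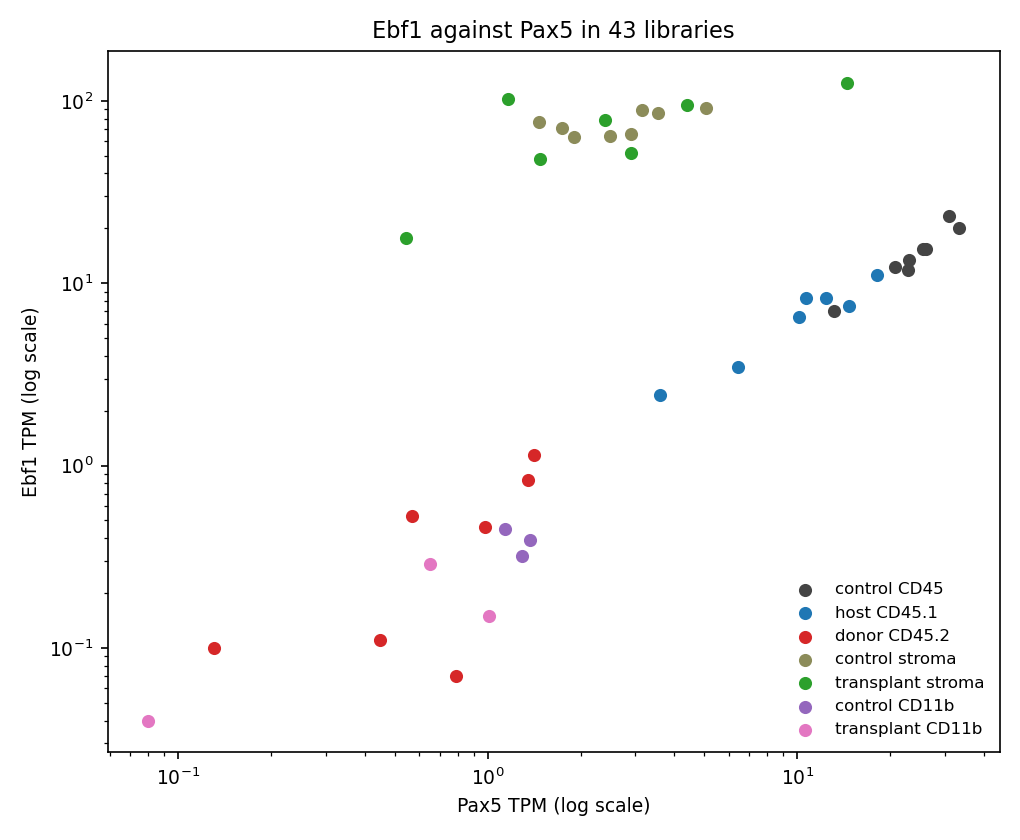
Ebf1 against Pax5 TPM, both on log scales, for all 43 libraries coloured by group. CD45 and CD11b libraries lie along one band from low to high values of both genes, while the 15 stroma libraries sit above it with Ebf1 at 17.8 to 126 TPM.

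The surrogate light chain genes also stood differently to Pax5 in stroma. The ratio of Igll1 to Pax5 TPM had a median of 6.56 (4.89 to 19.1) in control stroma and 1.30 (1.00 to 1.77) in control CD45 cells, and 12.5 in stroma of recipients. That of Vpreb1 to Pax5 had a median of 5.98 (4.79 to 17.3) and 1.19 (0.90 to 1.54). Stroma libraries were made with a low-input kit and the others by poly-A selection, and the sort and the library method cannot be told apart here.

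CD11b cells held little of these genes. Vpreb2 was listed at 0 in 5 of the 6 libraries and was not tested. For the other 9 genes the log2 difference of recipients from controls ran from -0.64 (Il7r, SE 0.43) to -1.56 (Rag1, SE 1.05), and 0 of 9 passed with edgeR, where 0% of 15257 genes tested passed and 2506 had an unadjusted p below 0.05. None of the 9 had an unadjusted p below 0.05, and none passed with DESeq2, which called 291 genes. Pax5 had 0.65, 1.01 and 0.08 TPM in the 3 recipients and 1.14, 1.37 and 1.29 TPM in the 3 controls. Ebf1 had 0.29, 0.15 and 0.04 TPM in recipients and 0.45, 0.39 and 0.32 TPM in controls. Recipient N129 was the lowest for 7 of the 10 genes. That library also had the highest summed T and NK markers, at 309 TPM where the other 5 had at most 174, and the lowest summed myeloid markers, at 194670 TPM where the other 5 had at least 276990, and their part in its values was not tested.

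Final blood chimerism, deposited without a unit, ran from 0.63 to 5.99 over the 7 recipients with a median of 2.06. The slope of host expression on its log2 was tested for 9 members, and 0 passed with edgeR, 0 had an unadjusted p below 0.05, and 0% of 12600 genes tested passed, with 538 at an unadjusted p below 0.05. Slopes ran from -0.26 per doubling (Rag1, SE 0.12) to 0.10 (Dntt, SE 0.13).

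The transplant difference in host cells was also compared between the sexes. 0 of 10 members passed the interaction test in edgeR, 0 had an unadjusted p below 0.05, and 0% of 14073 genes tested passed, with 425 at an unadjusted p below 0.05. Interaction terms, as females minus males, ran from -0.69 (Vpreb2, SE 0.70) to 0.24 (Rag1, SE 0.43). By level, in controls, Rag1 had 10.2 ± 3.80 TPM in females (SD, n = 4) and 21.6 ± 6.25 TPM in males (SD, n = 4), with ranges apart, and Vpreb1 had 21.5 ± 2.54 and 36.3 ± 7.74 TPM, also apart. The ranges were apart for Dntt, Vpreb3 and Igll1 too, and overlapped for Rag2, Vpreb2, Ebf1, Pax5 and Il7r. How many of all genes were apart between control females and males was not counted. In a comparison of control females with control males chosen after seeing the data, 10 of 10 members had a negative log2 difference and 8 an unadjusted p below 0.05 in edgeR, as had 696 of all genes tested. None passed the adjustment over 14093 genes, where 0.0426% were lower. DESeq2 called 3 members lower in females, Rag1, Vpreb1 and Igll1, and 36 genes in all.

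**Figure D5:**
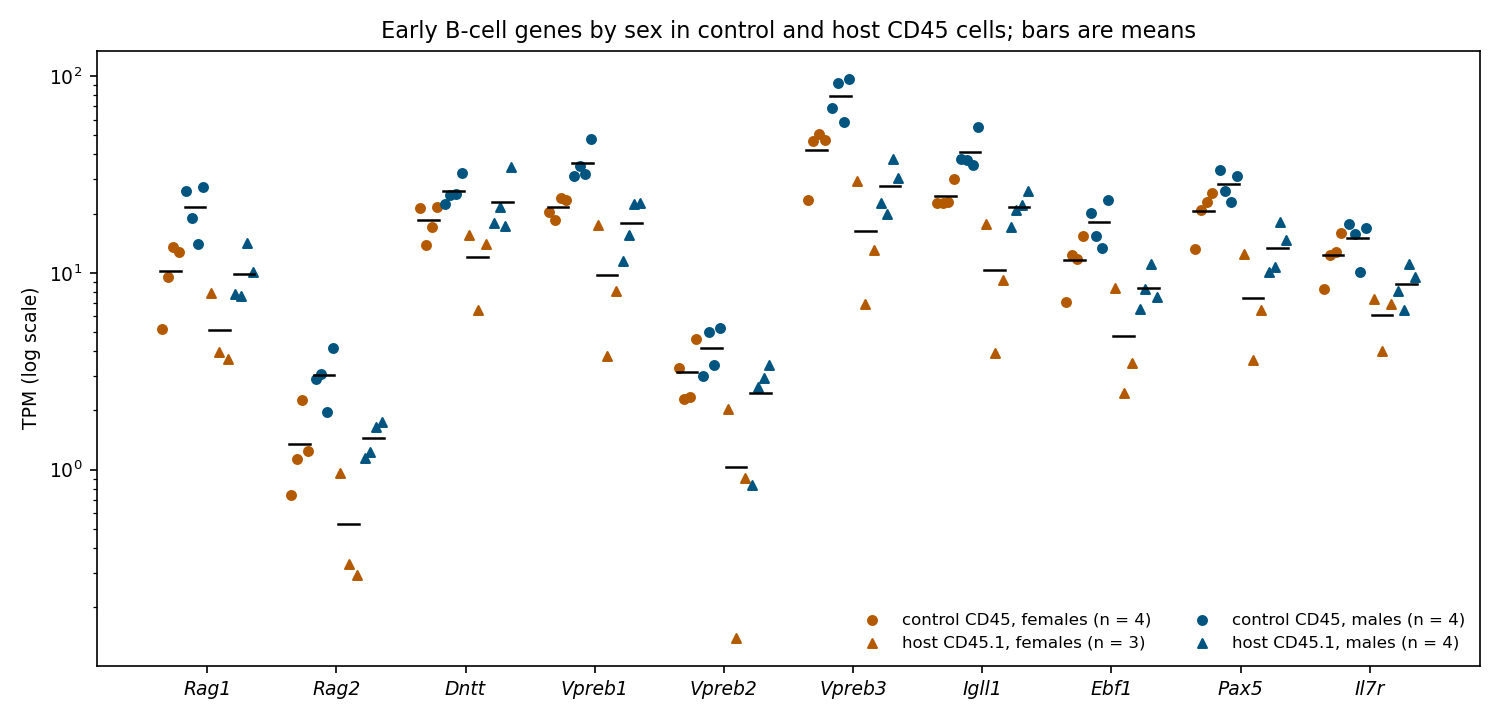
TPM of each gene (log scale) in control (circles) and host (triangles) cells, by sex; bars are means. In controls Rag1 ran from 5.17 to 13.5 TPM in 4 females and from 14.1 to 27.4 TPM in 4 males; the 3 host females include N269 and N204.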

How the data were processed

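Gene counts per library, deposited by the authors as raw counts, were the basis of every test, and the deposited TPM values were used for levels. Per the submitters' processing notes, STAR 2.7.3a, featureCounts (Subread 1.6.2) and GRCm39 were used, with RSEM 1.3.3 also named. The annotation, strand setting and TPM tool are not given in the sources used here. CD45 libraries were poly-A selected and strand-specific, per the labels' protocols. Each stroma library was run 2 times and deposited as 1 column.

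Symbols came from a gene name table. Counts were filtered with filterByExpr, scaled by TMM and tested in edgeR 4.0.16 (R 4.3.3) by its quasi-likelihood test, 2 groups a fit, sex being a covariate except in the all-male CD11b set, adjusted over all genes tested, passed at 0.05. Alternatives used DESeq2 1.42.0, limma 3.58.1 on log2(TPM + 1) or log2(TPM + 0.1) with TPM of at least 0.5, library size scaling, other filters (none, or 1 CPM in every library of 1 group), no sex term, 1 sex, the day of euthanasia or the animal as block, all CD45 groups together, and each library left out. The members, gene lists and tests were chosen with earlier results of these data known. From each list at most 3 genes a comparison are named, those with the smallest p, besides a few singled out after their values were seen (Ms4a1, Cd3e, Cd79a, Cxcl12, Itgam, Il7, Ebf2 and Ptprc as markers). The method was tested on simulated data with 200 changed genes. Of log2 changes of 1, it recovered 88.8% for host and 92.9% for donor against control cells, and 84.5% for donor against host cells. It recovered only 29.6% in stroma and 53.5% in CD11b cells, so changes of this size could be missed there. Of the genes called, 4.10% to 7.09% were false. Host and donor libraries share the animal. Deviations from the group means correlated between the host and donor libraries of each of the 7 animals (0.176 to 0.568). Different animals were not compared and sex was not removed, so these values cannot show an effect of sharing the animal. No 2 libraries of a group agreed within sampling noise, the lowest chi-square per degree of freedom being 9.27. Proteins were not used here. Replicates are separate mice by their animal labels. 1 gene that the naming rule would give is not reported here.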

Additional observations from a re-analysis of the deposited data

Results flagged for a closer look

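Of 50 sets of libraries examined, 11 had a highest or lowest library standing apart from the rest by Dixon's criterion at 95%, where chance gives about 1 in 20. 9 of the 11 were the stroma library of recipient N203, at 8.51 TPM for Rag1, 6.61 for Rag2, 19.1 for Dntt, 132 for Vpreb1, 15.7 for Vpreb2, 223 for Vpreb3, 181 for Igll1, 14.5 for Pax5 and 10.4 for Il7r. Ebf1 was the 1 member for which this library, though the highest of its group, did not stand apart. The other 2 were Dntt in the stroma of control N277, at 8.05 TPM where the rest ran up to 3.91, and Igll1 in the CD45 cells of control N002, at 54.9 TPM where the rest ran up to 37.9.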

How the results depend on the processing

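For host against control cells, 233 member values under an alternative kept their direction and call, 36 kept the direction without passing, and 0 reversed; 8 to 10 members passed in every alternative except females only (0 members). The 2312 genes passing in host cells became 1163 with log2(TPM + 1), 1131 with log2(TPM + 0.1), 479 in males, 121 in females, 850 with the day as a block, and 1527 to 2687 without 1 library. All 259 donor values against control kept direction and call; the 6360 genes passing became 3027 in males. Of 222 donor values against host, 1 lost its call (Igll1 in females, adjusted p = 0.073); the 1928 genes passing became 1130 and 1112 on the 2 TPM scales, 1136 in males, 450 in females and 4605 with the animal as replicate block, which changed no other call of a member. The 391 genes passing in stroma became 750 with DESeq2, 125 in males, 0 in females, and 272 to 593 without 1 library. The 0 in CD11b cells became 291 with DESeq2, 59 with no filter, 1 on each TPM scale, and 0 to 28 without 1 library. The 0 of the sex interaction became up to 2 (0 to 2 without 1 library). The 8 genes between control sexes became 36 with DESeq2, and members from 0 to 3.

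Member differences in stroma, none of which passed, reversed in 26 of 248 values. They turned to -0.16 (Vpreb3), -0.23 (Ebf1) and -0.014 (Pax5) with log2(TPM + 1), and to -0.30 (Rag2), -0.18 (Vpreb3), -0.24 (Ebf1), -0.14 (Pax5) and -0.048 (Il7r) with log2(TPM + 0.1). In females they were -0.011 (Rag1), -1.46 (Rag2), -0.21 (Dntt), -0.36 (Vpreb1), -0.54 (Vpreb3), -0.33 (Igll1), -0.30 (Pax5) and -0.43 (Il7r), and with the day as a block -0.38 (Rag2) and -0.072 (Pax5). Without 1 library they ran from -0.57 to 0.61 (Rag2), -0.14 to 0.97 (Vpreb1), -0.34 to 0.52 (Vpreb3), -0.088 to 1.00 (Igll1), -0.073 to 0.23 (Ebf1), -0.28 to 0.59 (Pax5) and -0.16 to 0.56 (Il7r); the low end of each is without N203, and Ebf1 was also negative (-0.051) without N269. The cause was not tested for any of these. Depth limits Rag2 and Vpreb2 in donor cells, at up to 8 and 3 counts a library.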

Other observations

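Il7, the ligand of the Il7r receptor, had 4.79 to 12.5 TPM in control stroma and 2.78 to 13.1 TPM in stroma of recipients, and at most 0.29 TPM in any CD45 or CD11b library. Of 12 niche factors, 0 passed between stroma of recipients and of controls, with a median log2 difference of -0.10. Cxcl12 was at -0.41 (SE 0.33, edgeR adjusted p = 0.94) and Vcam1, an adhesion molecule, at -0.43 (SE 0.31, edgeR adjusted p = 0.91). In host cells 7 of the 12 were tested, with a median log2 difference of 0.26, and 5 did not pass. Kitl, which encodes stem cell factor, rose by 0.87 (SE 0.28, edgeR adjusted p = 0.046). That call rests on 8 to 19 counts in a host library and 4 to 14 in a control library. Kitl had 0.22 to 1.13 TPM in host cells, against 29.0 to 186 TPM in control stroma. Tnfsf13b, which encodes the B-cell survival factor BAFF, fell by 0.70 on the log2 scale (SE 0.18, edgeR adjusted p = 0.016).

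Among the partner factors, Tcf3, which encodes E2A, was the 1 of 16 that passed in stroma, where 1.49% of all genes tested passed in either direction. Tcf3 was lower in recipients, at -1.36 on the log2 scale (SE 0.32, edgeR adjusted p = 0.045), at 30.4 ± 15.9 CPM (SD, n = 7) against 74.8 ± 34.4 CPM (SD, n = 8) in controls.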
